A study of Mus musculus with 3 samples.

Results

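The 10 genes described here encode the core of the Notch signalling pathway: the receptors Notch1, Notch2 and Notch3, the ligands Dll1, Dll3, Jag1 and Jag2, the nuclear effectors Rbpj and Maml1, and the target Hey1. They were chosen by name, as the transcripts that GENCODE assigns to these symbols, and are 10 of 18118 coding genes with a value. RNA was sequenced from wild-type mouse cortical neurons that received the control treatment, in 3 libraries named replicates 1 to 3. The labels give no age, strain or culture time, and nothing in them says that the libraries came from separate cultures, so the spread between them may be technical. As the study's title concerns DNA supercoiling and topoisomerases in neurons and all libraries belong to 1 group, no condition is compared, and the comparisons are between genes inside each library.

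Notch receptors sit in the membrane of a receiving cell and are activated by Delta-like (Dll) and Jagged (Jag) ligands on a neighbouring cell. Proteolysis then frees the receptor's intracellular domain, which enters the nucleus, joins the DNA-binding protein RBPJ and a Mastermind-like coactivator such as MAML1, and switches on genes for transcriptional repressors of the Hes and Hey families. In the developing cortex the pathway is known for keeping progenitors from becoming neurons, and in the older brain it is active in astrocytes, other glia and blood vessels as well as in neurons. Dll3 differs from the other ligands in acting mainly inside the cell that makes it, where it is known as an inhibitor.

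Levels are in TPM, a relative abundance that is scaled for transcript length and sums to 1000000 in each library. The TPM of a library are spread over 84660 transcript models that share reads, so a gene's value here, that of 1 coding transcript, is lower than on a scale over genes. A gene counted as expressed when its mean over the libraries reached 1 TPM. By that measure 5 of the 10 members were expressed (Notch1, Notch2, Dll1, Jag2 and Hey1), beside 61.8% of all coding genes. The median over the members was 1.28 ± 0.13 TPM (SD, n = 3), and over all coding genes 2.90 ± 0.01 TPM. Rescaled to the total of nuclear coding genes, all 10 members exceeded 1 TPM, from 2.05 TPM for Jag1 to 50.8 TPM for Hey1. That rescaling raises every gene, and the share of all coding genes above 1 TPM on that scale was not determined. The members were carried by 53 to 1413 reads per library, all counted on transcripts whose reads came out whole.

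The libraries were checked for the cells they held. All 12 neuron markers were expressed, with Stmn2 at 687 ± 55.6 and Gap43 at 458 ± 8.95 TPM, and their median was 135 ± 10.2 TPM. Glial and progenitor genes were present too. Astrocyte markers were expressed in 10 of 11 cases, led by Slc1a3 at 184 ± 19.1 and Aldoc at 128 ± 21.4 TPM. Radial glia markers were expressed in 9 of 9 cases, led by Fabp7 at 419 ± 81.4 and Ptprz1 at 54.5 ± 3.79 TPM. Of 10 oligodendrocyte lineage markers 8 were expressed, led by Olig1 at 34.4 ± 2.91 and Olig2 at 15.95 ± 6.36 TPM, and of 8 proliferation markers 6, led by Pcna at 8.36 ± 1.2 TPM (51% unique sequence) and Top2a at 4.13 ± 0.52 TPM. Vascular and microglial genes were low. No endothelial marker of 7 was expressed (Slco1a4 0.77 ± 0.37, Kdr 0.37 ± 0.18 TPM); Cldn5 had no reads in any library, so that at most 0.049 TPM is compatible with its counts. Pericyte and fibroblast markers were expressed in 4 of 10 cases (Acta2 3.07 ± 0.85, Tagln 2.66 ± 0.74 TPM) and microglial markers in 1 of 8 (Aif1 1.03 ± 0.43, Tyrobp 0.46 ± 0.42 TPM, Tmem119 without reads). In bulk RNA, fewer cells of a type and less RNA per cell cannot be told apart, and the cells that hold each Notch gene were not resolved.

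Notch1 and Notch2 stood at low levels with overlapping ranges, and Notch3 below both. Notch1, the receptor best known from neural progenitors, had 1.68, 1.35 and 1.73 TPM in replicates 1, 2 and 3. Notch2, found in radial glia and astrocytes among other cells, had 1.59, 1.84 and 2.07 TPM. Neither receptor was higher in all libraries: Notch1 exceeded Notch2 in replicate 1 and lay below it in replicates 2 and 3. Notch3, the receptor known for vascular smooth muscle and pericytes and also made by neural progenitors, had 0.78, 0.82 and 0.67 TPM and was the lowest of these 3 receptors in every library. These values rested on 818, 552 and 749 reads for Notch1, on 858, 835 and 995 for Notch2 and on 321, 286 and 246 for Notch3.

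Notch1 averaged 1.59 ± 0.21 TPM and Notch2 1.83 ± 0.24 TPM (SD, n = 3), a difference of -0.20 ± 0.25 on the log2(TPM + 0.1) scale that did not exceed the spread (exact sign-flip permutation p = 0.50, adjusted p = 0.57 over 8 pairs). Its sign depended on the transcript used. It was 0.46 with the most abundant transcript of each gene, 0.40 with the sum over coding transcripts and 2.55 with the sum over all transcripts, which counts shared reads repeatedly and in which Notch1 has 11 models and Notch2 has 1. Notch1 exceeded Notch3 (0.76 ± 0.08 TPM) by 0.97 ± 0.30 log2 units, a ratio of 2.13 ± 0.47. Notch2 exceeded Notch3 by 1.17 ± 0.29 log2 units, a ratio of 2.46 ± 0.56. Both held in 3 of 3 libraries (exact p = 0.25 each, adjusted p = 0.33). With 3 libraries 0.25 is the smallest p this test can give, so no pair could reach 0.05. Of the summed receptor TPM, Notch1 made up 37.9 ± 4.0%, Notch2 43.9 ± 3.95% and Notch3 18.2 ± 2.90%.

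**Figure D1:**
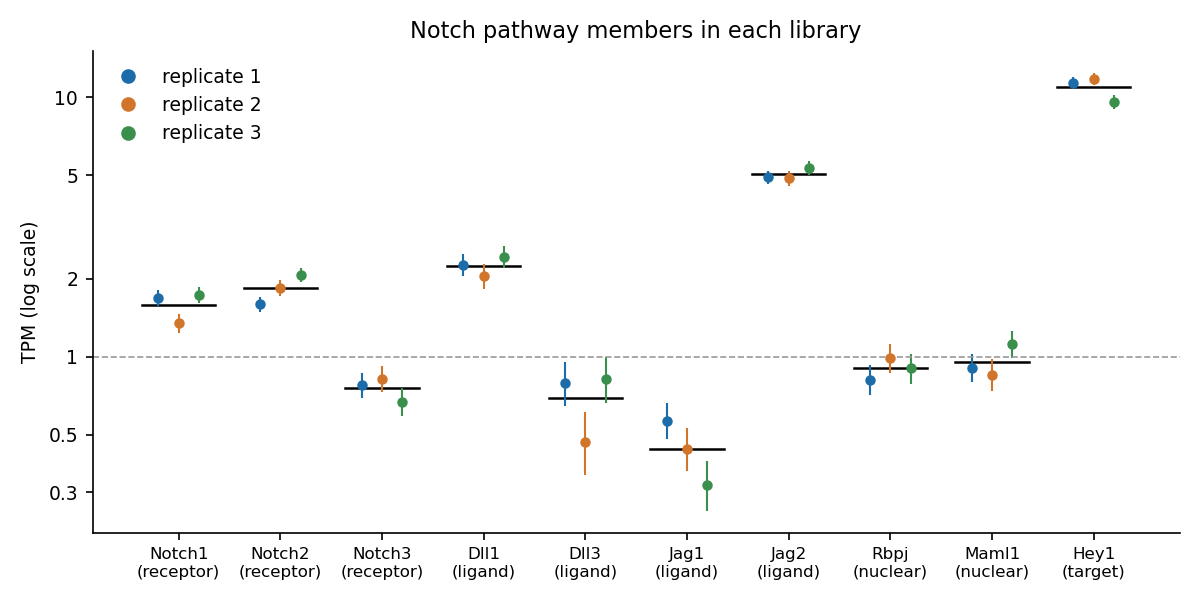
TPM of each member (log axis) in replicates 1 to 3, ordered by role. Points are libraries, vertical bars their 95% Poisson intervals for counting error, black lines the means and the dashed line 1 TPM. Hey1, at 9.60 to 11.8 TPM, and Jag2, at 4.88 to 5.36 TPM, stand above the other members in every library.

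The 4 ligands among the members spanned a wider range of levels than the 3 receptors. Jag1, the Jagged ligand of vessels, glia and progenitors, had 0.57, 0.44 and 0.32 TPM in replicates 1, 2 and 3 and the lowest mean of the members. Jag2, its paralogue, had 4.91, 4.88 and 5.36 TPM and was the highest of these 4 ligands in every library. The 2 Jagged genes did not overlap. Jag1 averaged 0.44 ± 0.12 TPM and Jag2 5.05 ± 0.27 TPM, a Jag1 minus Jag2 difference of -3.27 ± 0.40 log2 units with the same sign in 3 of 3 libraries (exact sign-flip permutation p = 0.25, adjusted p = 0.33). Jag1 thus stood at 0.088 ± 0.028 of the Jag2 level. With a pseudocount of 1 the difference was -2.07. The Jag2 model of the deposited table has 4054 bases, against 5106 in GENCODE release M21, and its TPM refers to the shorter one.

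Dll1, the main Delta ligand of the developing cortex, had 2.27, 2.05 and 2.43 TPM, between the 2 Jagged genes in every library. Dll3 had 0.79, 0.47 and 0.82 TPM, with its lowest value in replicate 2. That value rested on 53 reads, against 106 and 98 in replicates 1 and 3, and its 95% counting interval of 0.35 to 0.61 TPM did not reach the 0.65 to 0.96 TPM of replicate 1 or the 0.67 to 0.999 TPM of replicate 3. Dll1 averaged 2.25 ± 0.19 TPM and Dll3 0.69 ± 0.19 TPM, a difference of 1.60 ± 0.28 log2 units or a ratio of 3.40 ± 0.84. Dll1 exceeded Jag1 by 2.14 ± 0.40 log2 units, a ratio of 5.41 ± 1.91. Each of these differences had the same sign in 3 of 3 libraries (exact p = 0.25, adjusted p = 0.33). With a pseudocount of 1 they were 0.94 and 1.17.

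The mRNA of these 3 receptors summed to 4.05, 4.01 and 4.47 TPM and that of these 4 ligands to 8.54, 7.84 and 8.92 TPM in replicates 1, 2 and 3. The receptor sum lay below the ligand sum in every library, by -1.01 ± 0.06 on the log2 scale. Jag2 alone, at 60.0 ± 2.35% of the ligand sum, was higher than the receptor sum in each library. That order depends on the transcripts used. Notch1 averaged 2.45 TPM with the sum over coding transcripts and 11.2 TPM with the sum over all transcripts. Jag2 stayed at 5.05 TPM under both, so it lay below Notch1 alone with the sum over all transcripts, which counts shared reads repeatedly. Dll1 made up 26.6 ± 0.54%, Dll3 8.14 ± 1.87% and Jag1 5.28 ± 1.56% of the ligand sum.

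**Figure D2:**
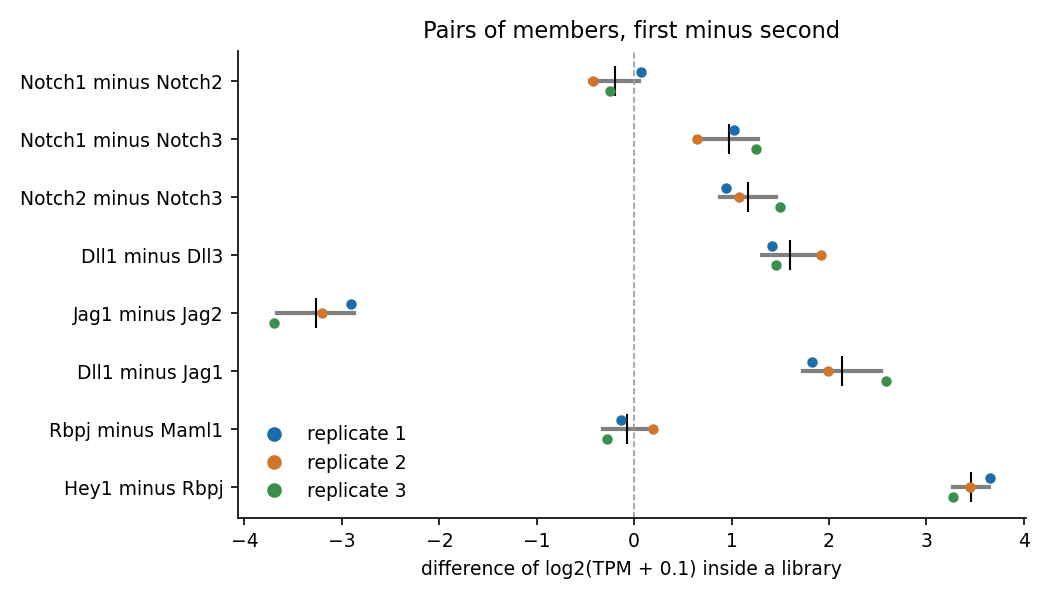
Differences of log2(TPM + 0.1) between pairs of members inside each library, the first gene minus the second. Points are libraries, black ticks the means and grey bars the mean ± SD over 3 libraries. Jag1 minus Jag2 lies at -3.27 and Hey1 minus Rbpj at 3.46, while Notch1 minus Notch2 and Rbpj minus Maml1 straddle 0. The Rbpj level is uncertain, as much of its sequence is repeated on the genome.

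The start regions of the Jagged pair, which had the widest difference between paralogues, are shown with that of Rbpj, because Rbpj encodes the DNA-binding protein of the pathway. Each window runs from 250 bases before to 50 bases after a RefSeq start on GRCm38.p6, 5′ to 3′ on the gene's strand, and Rbpj has further starts whose windows are not shown. Capitals mark the RBPJ core motif TGGGAA (or TTCCCA on the other strand) and the GC box GGGCGG (or CCGCCC). The windows are chr12:112929446-112929745 on the minus strand for Jag2, chr2:137116471-137116770 on the minus strand for Jag1 and chr5:53590096-53590395 on the plus strand for Rbpj.
Jag2: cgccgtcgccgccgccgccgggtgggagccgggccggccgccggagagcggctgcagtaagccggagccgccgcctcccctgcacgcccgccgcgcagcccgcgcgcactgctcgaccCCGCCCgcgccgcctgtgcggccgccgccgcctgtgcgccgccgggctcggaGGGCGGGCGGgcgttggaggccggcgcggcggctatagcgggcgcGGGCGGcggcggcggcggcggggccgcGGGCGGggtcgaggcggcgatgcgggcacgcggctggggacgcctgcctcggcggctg
Jag1: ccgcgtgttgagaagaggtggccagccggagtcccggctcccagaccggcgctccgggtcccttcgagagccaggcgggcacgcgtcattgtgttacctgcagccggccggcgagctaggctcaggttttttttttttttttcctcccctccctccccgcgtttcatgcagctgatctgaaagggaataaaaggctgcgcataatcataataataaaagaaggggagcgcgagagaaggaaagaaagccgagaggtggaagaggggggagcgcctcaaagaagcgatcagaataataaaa
Rbpj: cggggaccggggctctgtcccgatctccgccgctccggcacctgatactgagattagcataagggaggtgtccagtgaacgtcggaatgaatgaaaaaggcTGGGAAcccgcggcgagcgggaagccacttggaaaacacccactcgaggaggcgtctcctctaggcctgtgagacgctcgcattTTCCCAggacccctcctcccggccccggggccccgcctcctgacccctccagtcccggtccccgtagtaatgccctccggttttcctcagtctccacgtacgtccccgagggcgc

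The Jag2 window was 86.0% G or C and held 63 CpG dinucleotides and 5 GC boxes, of which 2 overlap. The Jag1 window was 55.7% G or C, with 22 CpG and no GC box, and the median over all windows was 52.7% G or C. A GC box occurred in 7 of 11 windows of the members and in 35.7% of all 32851 windows. The RBPJ core occurred in 2 of the 11 windows, both of Rbpj and overlapping each other, and in 25.6% of all windows. The Rbpj window shown holds it on each strand, with first bases 149 and 65 bases before the start. The E-box CACGTG, the kind of site that Hes and Hey proteins are known to bind along with related letters, occurred in 0 of the 11 windows and 7.15% of all. TATAAA, on either strand, occurred in 0 of the 11 and 13.6% of all. Windows were at hand for 9 members, not for Hey1. These are matches of letters, and binding was not measured.

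The nuclear members had means below 1 TPM on this scale, with 1 library above it for Maml1. Rbpj had 0.81, 0.99 and 0.90 TPM in replicates 1, 2 and 3, and Maml1, the coactivator, had 0.90, 0.85 and 1.12 TPM. Their ranges overlap, and Rbpj was the lower in replicates 1 and 3 and the higher in replicate 2. Rbpj averaged 0.90 ± 0.09 TPM and Maml1 0.96 ± 0.14 TPM, a difference of -0.08 ± 0.24 log2 units (exact sign-flip permutation p = 0.75, adjusted p = 0.75), which was 0.028 without replicate 3 and 0.42 with the sum over transcripts. The level of Rbpj is uncertain. Only 46.7% of the 50-base stretches of its transcript that occur on the genome occur there once, against 100% for each of the other 9 members, and how reads with several matches were counted is not given in the sources used here.

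Hey1, a repressor of the Hairy family and a direct target of the pathway, was the highest member in every library. It had 11.4, 11.8 and 9.60 TPM in replicates 1, 2 and 3, on 1413, 1234 and 1063 reads. Its level was lowest in replicate 3, outside the counting intervals of the other libraries. Hey1 averaged 10.9 ± 1.16 TPM and Rbpj 0.90 ± 0.09 TPM, a difference of 3.46 ± 0.19 log2 units or a ratio of 12.2 ± 1.68, in 3 of 3 libraries (exact p = 0.25, adjusted p = 0.33). The uncertainty of the Rbpj level from repeated sequence, given above, applies to this ratio and is not part of its SD. The difference was 1.95 with the sum over coding transcripts, in which the 3 overlapping Rbpj models count the same reads repeatedly. Hey1 ranked above 74.9% of coding genes, Jag2 above 59.3% and Dll1 above 46.6%. The 2 higher receptors ranked above 44.1% (Notch2) and 42.5% (Notch1), and the other members above 32.6% (Jag1) to 37.9% (Maml1).

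By mean level the order was Hey1, Jag2, Dll1, Notch2, Notch1, Maml1, Rbpj, Notch3, Dll3 and Jag1. Of the 9 steps between neighbours, 5 were larger than their SD and had the same sign in each library. The steps from Hey1 to Jag2 (1.09 ± 0.23 log2 units) and from Jag2 to Dll1 (1.14 ± 0.07) were the widest. Notch2 and Notch1, Maml1 and Rbpj, Notch3 and Dll3 (0.14 ± 0.50), and Dll3 and Jag1 (0.539 ± 0.541) did not differ beyond their spread. As the order was read from the same values, it is a description without a test.

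The spread between libraries exceeded counting error for all 10 members, by 1.49 to 3.91 times as a coefficient of variation. The share of all coding genes that exceed it was not determined, so this is not shown to be particular to the members. Among the members, Jag1 and Dll3 varied most, at 27.9% and 28.1%, where counting alone gives 9.23% and 10.8%. Jag2 varied least, at 5.28% with 3.23% from counting. Of the 5 expressed members 4 were highest in replicate 3 (Notch1, Notch2, Dll1 and Jag2), as were 31.4% of all expressed coding genes, and 1 (Hey1) was highest in replicate 2, as were 40.4%. None of the 5 was highest in replicate 1, as were 28.2%. In turn 3 of the 5 were lowest in replicate 2, 1 in replicate 1 and 1 in replicate 3, as were 25.4%, 33.6% and 40.9% of all expressed coding genes. Over the 10 members, expressed or not, 6 were highest in replicate 3 and 5 lowest in replicate 2. The shares above cover expressed genes only, and none was determined for coding genes of any level. Jag1 was highest in replicate 1 and lowest in replicate 3, and Notch3 and Hey1 were highest in replicate 2 and lowest in replicate 3.

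Marker genes of other cells also differed between the libraries. The summed level of the 10 oligodendrocyte lineage markers was 73.7, 56.2 and 90.5 TPM in replicates 1, 2 and 3. It was lowest and highest in the same libraries as the members Notch1, Dll1, Dll3, Jag2 and Maml1. Not all 10 genes followed the sum, with 3, 1 and 6 highest and 1, 6 and 3 lowest in replicates 1, 2 and 3. Pdgfra, the receptor of oligodendrocyte precursors, had 11.5, 4.96 and 18.4 TPM, while the myelin gene Mobp was at 0.039, 0.015 and 0 TPM. The 8 proliferation markers summed to 25.1, 19.97 and 25.01 TPM, and 8 of 8 were lowest in replicate 2, as were the same members. The 9 radial glia markers summed to 657, 590 and 499 TPM, highest and lowest in the same libraries as Jag1. Most of that sum was Fabp7, at 503, 415 and 340 TPM, and the list did not move as one, with 2, 4 and 3 of its 9 genes highest and 5, 0 and 4 lowest in replicates 1, 2 and 3. The 11 astrocyte markers summed to 438, 465 and 531 TPM, highest and lowest in the same libraries as Notch2. The 12 neuron markers summed to 2549, 2613 and 2284 TPM, highest and lowest in the same libraries as Hey1 and Notch3. Endothelial markers summed to 1.16, 2.09 and 1.16 TPM, pericyte and fibroblast markers to 9.47, 11.1 and 10.2 TPM and microglial markers to 2.68, 2.62 and 1.32 TPM. The pericyte and fibroblast sum was highest and lowest in the same libraries as Rbpj, and the microglial sum in the same as Jag1. The part of these cells in the members' spread was not tested.

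**Figure D3:**
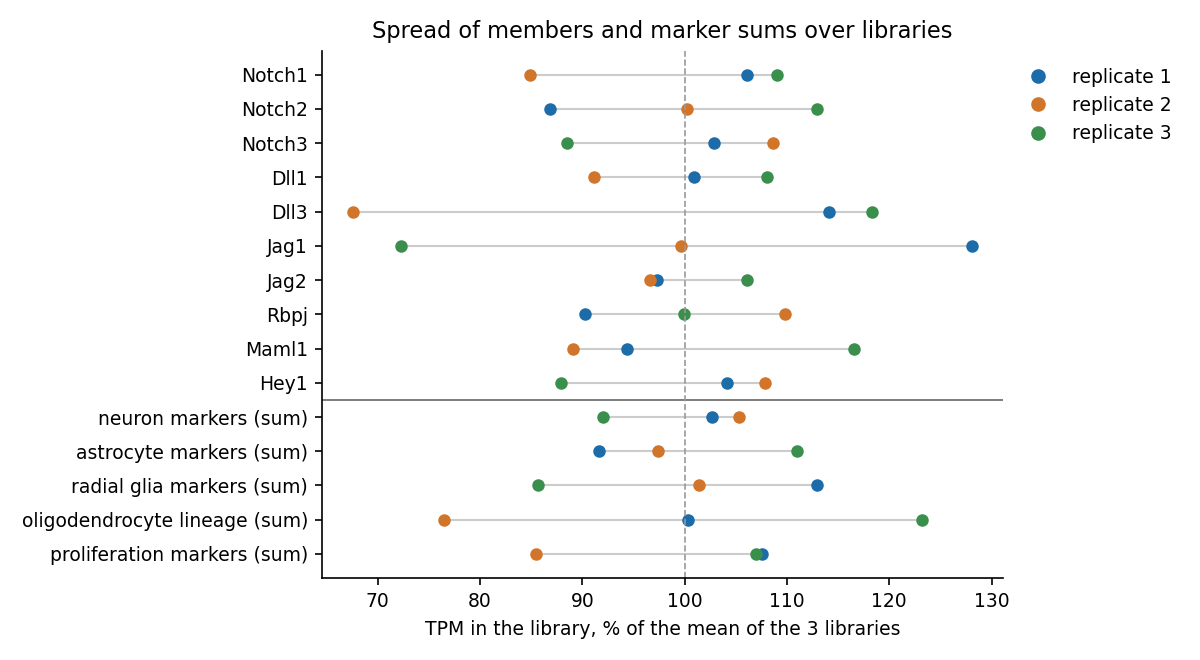
TPM of each member, and summed TPM of 5 marker lists, in each library as a percentage of the mean over the 3 libraries. Points are libraries and grey lines join the lowest to the highest. Dll3 is low in replicate 2, as are the oligodendrocyte lineage and proliferation sums, and Jag1 spans from 128% in replicate 1 to 72.3% in replicate 3.

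Besides the coding transcript, 7 of the 10 members had other transcript models in the table, 24 in all, which share exons and reads with it. The models with the largest share of their bases in the exons of the coding transcript tended to stand higher relative to it. Of 12 models with at least 80% of their bases in those exons, 9 stood above the coding transcript, with a median ratio of 1.15 and a range of 0.68 to 1.71. Of 12 models with less, 1 stood above it, with a median ratio of 0.57. The retained-intron model Notch1-205, with 9.78% of its bases in coding exons, had 3, 2 and 6 reads in replicates 1, 2 and 3, against 818, 552 and 749 for Notch1-201. The retained-intron models of Hey1 reached 11.4 ± 0.93 (Hey1-202), 8.56 ± 0.43 (Hey1-203) and 7.0 ± 0.57 TPM (Hey1-204), beside 10.9 ± 1.16 TPM for the coding Hey1-201, with 72.5%, 76.8% and 51.3% of their bases in its exons. Intron-containing RNA and shared exon reads cannot be told apart in these values.

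**Figure D4:**
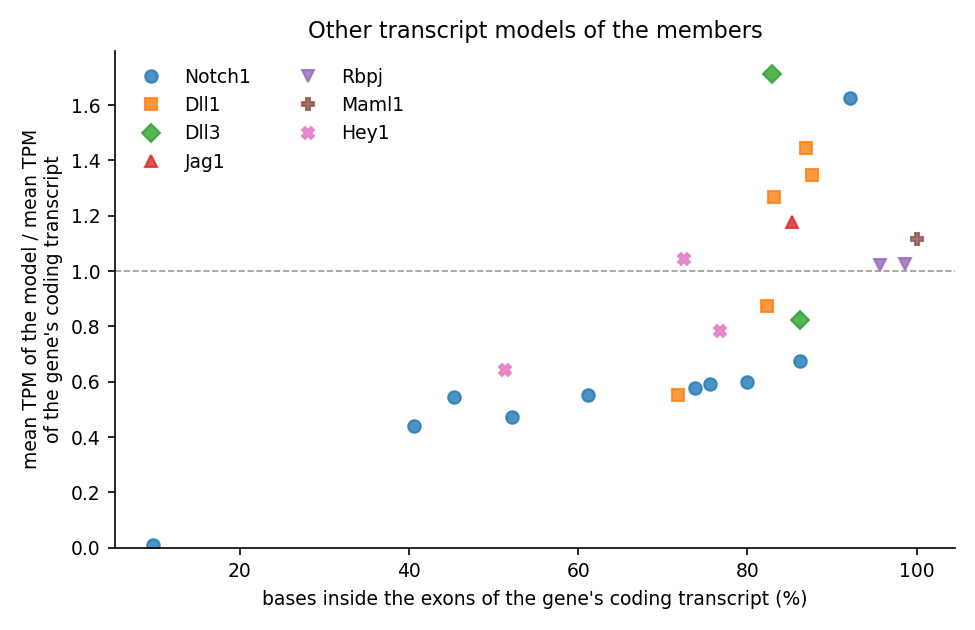
Mean TPM of the 24 other transcript models of 7 members, divided by that of the gene's coding transcript, against the percentage of the model's bases inside the exons of the coding transcript. Points are models, marked by gene, and the dashed line is a ratio of 1. Models with at least 80% of their bases in coding exons range from 0.68 to 1.71, and Notch1-205, at 9.78%, lies near 0.

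In Dll3 and Dll1, models nearer the 3′ end had the higher read density, which did not hold in Notch1. Dll3-202, centred 322 bases from the 3′ end, had 1.17, 0.83 and 1.55 TPM, and Dll3-203, centred 1784 bases from it, had 0.64, 0.35 and 0.72 TPM, a ratio of 2.12 ± 0.27. In Dll1, model 204, centred 498 bases from the end, had 3.24 ± 0.25 TPM, 206 at 1913.5 bases 3.02 ± 0.49 TPM and 203 at 2196 bases 2.85 ± 0.41 TPM, and the ranges of these 3 overlap. Dll1-202 at 2463.5 bases had 1.96 ± 0.16 TPM and Dll1-205 at 2882.5 bases 1.24 ± 0.22 TPM. Dll1-205 has 71.8% of its bases in coding exons and the other 4 have 82.3% to 87.6%, so position and intron content differ together there. In Notch1 the order was the other way for Notch1-202, centred 5136.5 bases from the end, at 2.58 ± 0.43 TPM and Notch1-203, at 4114 bases, at 1.07 ± 0.30 TPM. These models were picked with their values known.

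Maml1-201 had almost no reads beyond those of its shorter model Maml1-202. Maml1-202 is nested in Maml1-201 and lacks 507 of the 586 bases of the first exon and a further exon of 97 bases. These 604 bases are 10.9% of Maml1-201, yet it had only 1, 0 and 4 reads more than Maml1-202 in replicates 1, 2 and 3, or 0.67% of its reads. Reads that also touch shared bases can count for both models, so how far the 604 bases were read was not resolved. The 3 coding models of Rbpj differ mainly in their first exons, and their reads were alike to within 1, at 231, 237 and 228 for Rbpj-201 and 231, 236 and 228 for both Rbpj-202 and Rbpj-203. The starts in use were therefore not resolved. A longer model with almost the same reads has a lower TPM. Maml1-202 stood at 1.07 ± 0.15 TPM, beside 0.96 ± 0.14 TPM for Maml1-201, on opposite sides of the 1 TPM minimum.

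The other genes of the pathway came from a list of 47, of which 38 were expressed (80.9%), beside 61.8% of all coding genes, with a median of 3.72 ± 0.24 TPM. Among other receptors and ligands, Dner, a neuronal membrane protein related to Delta, stood at 95.2 ± 11.1 TPM, above every member. Dlk2, a Delta-like protein, had 7.41 ± 0.30 TPM and its paralogue Dlk1 0.48 ± 0.13 TPM. The receptor Notch4 and the ligand Dll4, both known from blood vessels, had 0.096 ± 0.030 and 0.148 ± 0.029 TPM.

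Listed targets of the pathway and their Hes and Hey relatives were spread widely. Hes6, a Hes relative that is known to counter Hes1 and is made by neurons, was the highest of them. It had 9.60 ± 0.91 TPM, below Hey1, and its response to the pathway was not tested. Nrarp, a feedback inhibitor, had 3.68 ± 0.17 TPM, Hes1, the classical progenitor repressor, 3.01 ± 0.19 TPM and Hes5 1.09 ± 0.17 TPM. The relatives Hey2 and Hes7 had 0.41 ± 0.06 and 0.12 ± 0.04 TPM. Heyl, known from smooth muscle, was close to absent at 0.013, 0 and 0.005 TPM in replicates 1, 2 and 3.

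Genes that process or regulate receptors and ligands had group medians of 4.85 ± 0.55 TPM (proteases), 13.4 ± 1.47 (ligand ubiquitin ligases), 2.84 ± 0.35 (glycosyltransferases) and 12.7 ± 0.26 TPM (adaptors and turnover), beside 1.56 ± 0.19 TPM for the 3 receptors. Of 9 protease genes 8 were expressed, led by Adam10, the sheddase that makes the first activating cut, at 23.2 ± 1.56 TPM, and the gamma-secretase subunit gene Ncstn at 19.6 ± 1.30 TPM. Aph1c was lowest at 0.62 ± 0.01 TPM. The count of 8 and the group median rest partly on uncertain levels of gamma-secretase subunit genes, as only 31.3% of the 50-base stretches of Psenen (1.004 ± 0.17 TPM, at the minimum for expressed) and 38.1% of those of Aph1a (2.71 ± 0.06 TPM) occur once on the genome. For the paralogues Aph1b (6.11 ± 0.50 TPM) and Aph1c the shares were 81.9% and 82.7%. All 4 ubiquitin ligase genes that act on ligands were expressed, with Mib2 at 17.8 ± 1.01, Neurl1a at 13.9 ± 0.77 and Neurl1b lowest at 6.06 ± 0.94 TPM. Of 5 glycosyltransferase genes that modify the receptors 4 were expressed, with Rfng at 17.3 ± 1.11, Poglut1 at 14.6 ± 0.70 and Mfng lowest at 0.20 ± 0.12 TPM. All 8 adaptor and turnover genes were expressed, with Fbxw7, which marks the intracellular domain for destruction, at 50.7 ± 3.81, Dtx3 at 41.8 ± 2.21 and Dtx2 lowest at 1.60 ± 0.12 TPM. Of 9 other nuclear genes 8 were expressed, with the splicing factor and coactivator gene Snw1 at 22.8 ± 1.24 TPM and Rbpjl, a relative of Rbpj known from pancreas, lowest at 0.039 ± 0.031 TPM. The Maml1 relatives Maml2 and Maml3 had 1.37 ± 0.21 and 1.03 ± 0.13 TPM.

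**Figure D5:**
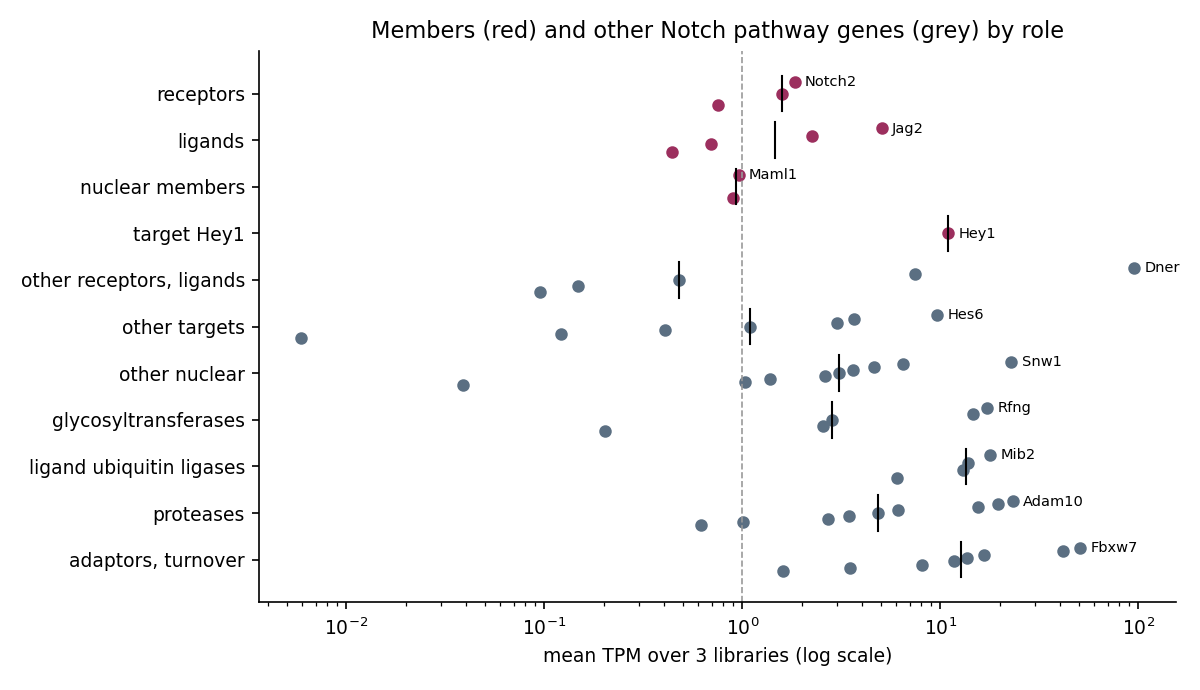
Mean TPM over 3 libraries (log axis) of the members (red) and the other listed Notch pathway genes (grey), by role. Points are genes, black lines the medians of a group and the dashed line 1 TPM, and the highest gene of each group is named. Receptors and nuclear members lie near 1 TPM, while Dner reaches 95.2 and Fbxw7 50.7 TPM.

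On GRCm38 the genes of the members span the following intervals, in GENCODE release M21. Notch1 (ENSMUSG00000026923.15) lies on chromosome 2 from 26457903 to 26516663, and Jag1 (ENSMUSG00000027276.7) on the same chromosome from 137081456 to 137116644, both on the minus strand. Chromosome 3 carries Hey1 (ENSMUSG00000040289.8) from 8663359 to 8667256 on the minus strand and Notch2 (ENSMUSG00000027878.11) from 98013527 to 98150361 on the plus strand. Chromosome 17 carries Dll1 (ENSMUSG00000014773.13) from 15367354 to 15376872 and Notch3 (ENSMUSG00000038146.8) from 32120820 to 32166852, both on the minus strand. Rbpj (ENSMUSG00000039191.12) lies on chromosome 5 from 53466152 to 53657362 on the plus strand. On the minus strand, Dll3 (ENSMUSG00000003436.11) lies on chromosome 7 from 28293553 to 28302238, Maml1 (ENSMUSG00000050567.16) on chromosome 11 from 50255634 to 50292311 and Jag2 (ENSMUSG00000002799.6) on chromosome 12 from 112907819 to 112929776. The coding transcripts have 33 or 34 exons in the receptors, 26 in both Jagged genes, 9 to 11 in the Delta genes, 11 in Rbpj and 5 in Maml1 and Hey1.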

How the data were processed

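RNA of mouse cortical neurons was sequenced in 3 libraries of 1 group, wild-type control. Per the submitters' processing notes, the build was mm10 and the tools named are STAR 2.5.3a, Subread 1.4.6, featureCounts and FastQC 0.11.2. Their roles, the options for reads with several matches and the strand setting are not given in the sources used here. The authors deposited TPM values for 84660 transcripts, each library scaled to 1000000. The release is M4 per the file's name.

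Transcripts were matched without version to GENCODE M21 on GRCm38, the same build, and 1643 did not match. Lengths took the deposited outer ends where these gave whole reads. TPM times length then gave whole reads, within 0.01 of a read in every library, for 98.0% of 77590 matched rows above 0, and for the coding transcript of each of the 10 members. Summed over the coding transcripts used, replicates 1, 2 and 3 held 33484492, 29591851 and 29086025 reads. No count model was run, as there is 1 group.

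A gene's value is that of its coding transcript with the highest mean TPM times exonic length. Differences were taken inside a library on log2(TPM + 0.1), which understates differences of low genes, and tested by exact permutation of their signs over 3 libraries (two-sided). The p-values were adjusted by the Benjamini-Hochberg method over 8 pairs. Intervals are exact Poisson intervals at 95% on the reads, and they and the limit that a count of 0 allows (3 reads) cover counting error only. Uniqueness was searched with 50-mers, taken every 10 bases, on both strands of 22 chromosome sequences of GRCm38. Promoter windows came from RefSeq on GRCm38.p6.

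The members, pairs and gene lists were chosen with earlier results of these data known. All members and every gene of the first 2 pathway groups are named. The 2 highest and the lowest of the other pathway groups, and the 2 highest and those at 0 of each marker list, complete the rule, and other names were chosen after their values were seen. One listed gene was not analysed here. A further gene that the rule names is not reported here. The alternatives were pseudocounts of 1 and 0.01, other ways to pick or sum transcripts, other thresholds, rescaling and leaving out each replicate. The reading of whole reads and the statistics were tested on simulated data. Python 3.11.15, numpy 2.4.6, pandas 2.3.3, scipy 1.17.1 and matplotlib 3.10.9 were used.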

Additional observations from a re-analysis of the deposited data

How the results depend on the processing

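Of 73 values of the 8 pair differences under the alternatives run, 67 kept their direction. The exceptions were Notch1 minus Notch2, at 0.46 with the most abundant transcript, 0.40 with the sum over coding transcripts and 2.55 with the sum over all transcripts, and Rbpj minus Maml1, at 0.42 with either sum and 0.028 without replicate 3. No pair could pass the test in any setting. Leaving out each replicate, the differences ran from -0.34 to -0.088 for Notch1 minus Notch2, 0.83 to 1.13 for Notch1 minus Notch3, 1.01 to 1.28 for Notch2 minus Notch3, 1.43 to 1.69 for Dll1 minus Dll3, -3.45 to -3.06 for Jag1 minus Jag2, 1.91 to 2.29 for Dll1 minus Jag1, -0.21 to 0.028 for Rbpj minus Maml1 and 3.36 to 3.55 for Hey1 minus Rbpj. Members counted as expressed numbered 8 with the sum over all transcripts and 10 when rescaled to nuclear coding genes. They numbered 7 with the most abundant transcript and 7 with the sum over coding transcripts. With a minimum of 0.5 TPM they were 9, with 5 TPM 2, and without a replicate 5 to 6. The share of all coding genes under these settings was not determined. The other pathway genes numbered 21 at 5 TPM. The receptor minus ligand difference was -0.95 with the most abundant transcript, -0.74 with the sum over all transcripts and -0.94 with that over coding transcripts. Of 80 values of single members' means, 24 moved by more than 1 SD, each under another transcript rule or rescaling. Leaving out a replicate gave no value for the count highest in replicate 3, and a minimum of 1 TPM none for pairs with a lower gene. No paired comparison of conditions was possible because there is 1 group. Depth limits Dll3 and Jag1 most, with 53 to 163 reads per library.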
